A study of Mus musculus with 12 samples.

Results

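The CCT chaperonin, also called TRiC, is a barrel of stacked rings in which newly made proteins fold inside a closed chamber driven by ATP. Each ring is built from different but related subunits, so that the complex needs all of them, and they are encoded by *Tcp1* (the alpha subunit), *Cct2* (beta), *Cct3* (gamma), *Cct4* (delta), *Cct5* (epsilon), *Cct6a* (zeta), *Cct7* (eta) and *Cct8* (theta). Actin and tubulin are its best known clients, and prefoldin delivers them to it. The 8 subunit genes were examined among 49585 genes in the count files. Of these, 7 were matched by symbol in the authors' table, and *Cct6a*, which has no row there, was matched by its Ensembl identifier, ENSMUSG00000029447, in the count files.

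The question addressed was how loss of *Rnmt*, which encodes the methyltransferase that completes the guanosine cap of mRNA, altered the transcripts of these genes and their occupancy by ribosomes. Naive CD4 T cells were isolated from lymph nodes of female mice on a C57B6/J background and stimulated for 20 h on plates coated with anti-CD3 (5 ug/ml) and anti-CD28 (1 ug/ml), with cycloheximide (0.1 mg/ml) given for 1 min before lysis. Control mice were *Rnmt* fl/fl CD4cre - and *Rnmt* cKO mice *Rnmt* fl/fl CD4cre +, so that both genotypes carried loxP sites around exon 3 of *Rnmt* and Cre, expressed from *Cd4* sequences, deleted the exon from the double positive stage of the thymus onwards, in CD8 as well as CD4 lineage cells. Cytoplasmic total RNA and ribosome protected fragments (RPFs), the stretches of mRNA covered by ribosomes, were sequenced from 3 cultures of each genotype, giving 12 libraries. The labels do not say whether each culture came from a separate mouse, and p-values measure the spread between these cultures. Reads counted on genes ranged from 15079703 to 22629563 in total RNA and from 4123271 to 10661356 in RPF libraries, of which *Rnmt* cKO replicate 3 was the shallowest.

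The CCT genes lay on 8 different chromosomes of GRCm38. Their annotated positions were chr17:12915701-12925067 (*Tcp1*), chr10:117051001-117063814 (*Cct2*), chr3:88297116-88321767 (*Cct3*), chr11:22990519-23003780 (*Cct4*), chr15:31590800-31601804 (*Cct5*), chr5:129786998-129846371 (*Cct6a*), chr6:85451514-85468475 (*Cct7*) and chr16:87483326-87495873 (*Cct8*). All 8 passed the filter on low counts in both kinds of library. A CCT gene held between 9093 and 25840 reads in a total RNA library and between 3450 and 16234 in an RPF library. Values are given as CPM, the count of a gene scaled to the reads on all genes of its library.

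Promoter windows of RefSeq on GRCm38.p6, from 250 bases before to 50 after the annotated start, were held for 7 of the 8 genes and not for *Cct4*. Those of the 2 genes with the largest rise in total RNA, *Cct7* (plus strand, chr6:85451255-85451554) and *Cct6a* (plus strand, chr5:129787106-129787405), and of the 2 that did not pass the test there, *Cct2* (minus strand, chr10:117063803-117064102) and *Tcp1* (plus strand, chr17:12916079-12916378), are shown 5′ to 3′ so that their sequences can be compared. Capitals mark CCAAT or its reverse complement ATTGG.
Cct7: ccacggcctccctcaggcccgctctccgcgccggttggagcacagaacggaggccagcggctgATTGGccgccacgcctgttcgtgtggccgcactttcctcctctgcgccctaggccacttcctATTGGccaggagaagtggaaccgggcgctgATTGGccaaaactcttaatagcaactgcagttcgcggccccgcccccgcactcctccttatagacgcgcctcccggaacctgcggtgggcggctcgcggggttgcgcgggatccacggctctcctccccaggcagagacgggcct
Cct6a: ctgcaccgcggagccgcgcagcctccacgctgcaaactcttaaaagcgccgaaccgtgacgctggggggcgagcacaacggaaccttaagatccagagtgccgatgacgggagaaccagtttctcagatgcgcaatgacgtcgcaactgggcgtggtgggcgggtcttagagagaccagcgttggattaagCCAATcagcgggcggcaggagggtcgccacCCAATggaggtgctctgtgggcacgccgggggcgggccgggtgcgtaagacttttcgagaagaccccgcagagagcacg
Cct2: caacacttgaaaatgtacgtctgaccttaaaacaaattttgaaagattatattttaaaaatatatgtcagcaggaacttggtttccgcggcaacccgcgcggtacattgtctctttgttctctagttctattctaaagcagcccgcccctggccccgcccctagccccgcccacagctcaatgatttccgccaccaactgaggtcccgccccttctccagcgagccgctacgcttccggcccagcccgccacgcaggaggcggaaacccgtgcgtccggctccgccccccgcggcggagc
Tcp1: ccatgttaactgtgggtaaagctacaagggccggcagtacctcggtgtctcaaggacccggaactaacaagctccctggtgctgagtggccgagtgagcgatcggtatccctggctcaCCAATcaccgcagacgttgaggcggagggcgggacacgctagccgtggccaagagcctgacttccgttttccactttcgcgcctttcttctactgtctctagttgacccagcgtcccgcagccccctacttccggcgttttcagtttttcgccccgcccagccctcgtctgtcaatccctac
The CCAAT letters occurred on either strand in 4 of 7 CCT windows, those of *Tcp1*, *Cct3*, *Cct6a* and *Cct7*, against 37.4% of the 32851 windows in the table. *Cct7* held 3 matches, *Cct6a* and *Cct3* 2 each and *Tcp1* 1, and at least 2 matches occurred in 3 of 7 CCT windows against 11.7% of all. GGGCGG on either strand was found in 7 of 7 windows, against 35.7% of all windows. CACGTG was in 0 of 7 windows (7.15% of all), TGACGT in 1, that of *Cct6a* (7.51%), and TTCNNGAA in 2, those of *Cct5* and *Cct6a* (8.52%). An annotated start at C followed by at least 4 pyrimidines, the pattern that begins terminal oligopyrimidine (TOP) mRNAs, was in 0 of 7 windows and in 2.51% of all. These are matches of letters and not sites of binding. *Cct5* and *Cct8*, which also rose in total RNA, held no CCAAT match, and *Cct3*, with the smallest called rise, held 2. Whether matches go with the changes was not tested. The count at annotated starts rests on the starts chosen. The RefSeq start lay 628 bases from the GENCODE start for *Tcp1*, 358 for *Cct6a* and at most 42 for the rest. *Cct2* and *Cct5* had 2 windows each, of which 1 was used.

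*Rnmt* itself, the deleted gene, was examined first to check the labels. In total RNA it was at 93.3 CPM ± 1.58 (SD, n = 3) in controls and 31.1 ± 2.38 in *Rnmt* cKO libraries. In RPF it was at 96.0 ± 9.21 and 10.2 ± 0.684. The log2 fold change was -1.62 in total RNA and -3.24 in RPF, so each genotype label fitted its libraries. The 5 markers of CD4 T cells were present in every library, and summed in total RNA to 2255 ± 91.8 CPM in control and 1956 ± 137 CPM in *Rnmt* cKO libraries (mean ± SD, n = 3). *Cd4*, the coreceptor, was at 325 and 298 CPM, *Cd3e*, a chain of the T cell receptor complex, at 122 and 135 CPM and *Cd28*, the costimulatory receptor, at 1081 and 1100.4 CPM, and these 3 did not pass the test in total RNA or RPF. *Cd3g*, also a chain of the receptor complex, fell from 445 to 194 CPM (edgeR adjusted p = 7.5e-05) and in RPF from 835 to 442 CPM (2.1e-04). *Trac*, the constant region of the receptor alpha chain, fell from 282 to 229 CPM (0.017) and in RPF from 705 to 522 CPM (0.011).

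In total RNA, 6 of the 8 CCT genes rose in *Rnmt* cKO cells and 0 fell, both by edgeR and by DESeq2. These were *Cct7*, *Cct6a*, *Cct4*, *Cct8*, *Cct5* and *Cct3*, with fitted folds from 1.45 down to 1.12, whereas *Cct2* and *Tcp1* did not pass the test. *Tcp1* alone was lower before adjustment at an unadjusted p under 0.05 in edgeR. Among all 11519 genes tested (edgeR quasi-likelihood, p-values adjusted after Benjamini and Hochberg), 26.3% were higher and 28% lower. The median log2 fold change was 0.23 over the 8 genes and -0.004 over all genes tested. The cells were measured in bulk, so fewer cells of a type and less RNA per cell cannot be told apart. CPM and fitted folds are relative to the other RNAs of a library, so "rose" and "fell" are meant in that sense throughout, and the amount per cell was not measured in these libraries. The authors' paper reports less mRNA per cell in activated *Rnmt* cKO cells. It states that sequencing therefore overestimates rises and underestimates falls of single genes.

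*Cct7* had the lowest level of the 8 in control total RNA and the largest rise. It was at 502.3, 499.4 and 475.8 CPM in control replicates 1 to 3 and at 701.7, 757.2 and 741.5 CPM in *Rnmt* cKO replicates 1 to 3. All *Rnmt* cKO values were above all control values. The log2 fold change was 0.54 (SE 0.054, adjusted p = 1.3e-04 by edgeR).

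*Cct6a*, the zeta subunit of most tissues, was at 807.0, 815.2 and 776.1 CPM in the controls and at 1013, 1108 and 1142 CPM in the *Rnmt* cKO libraries. The groups did not overlap, and the log2 fold change was 0.41 (SE 0.057, edgeR adjusted p = 6.1e-04). *Cct4* was at 698.1, 704.7 and 642.6 CPM in controls against 823.8, 884.9 and 905.1 CPM in *Rnmt* cKO libraries. Its groups were again apart, with a log2 fold change of 0.32 (SE 0.058, edgeR adjusted p = 0.0024).

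The other 3 rises were smaller. The log2 fold change was 0.25 for *Cct8* (edgeR adjusted p = 0.015), 0.20 for *Cct5* (0.024) and 0.17 for *Cct3* (0.044). Their *Rnmt* cKO libraries also lay above all controls, so that this held for 6 of the 8 genes, against 32% of all genes tested. The calls of these 3 lay near the threshold, and their estimates kept their direction where a call was lost. *Cct3* missed the threshold in 5 of 6 fits that left out 1 library, where its adjusted p reached 0.13, *Cct5* in 3 of 6 (up to 0.087, without control replicate 2 or 3 or *Rnmt* cKO replicate 1) and *Cct8* in 1 of 6 (0.051 without control replicate 1). In these fits the log2 fold change was 0.13 to 0.21 for *Cct3*, 0.17 to 0.24 for *Cct5* and 0.19 to 0.29 for *Cct8*. Over all 14 alternatives *Cct3* was called in 5 (adjusted p up to 0.16), *Cct5* in 8, *Cct8* in 12, and *Cct7*, *Cct6a* and *Cct4* in each.

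*Tcp1* and *Cct2* did not pass the test in total RNA, and their difference from the other members was not tested. *Tcp1* was at 827.7, 835.3 and 763.7 CPM in controls and at 718.5, 781.4 and 768.4 CPM in *Rnmt* cKO libraries, with overlapping ranges and a log2 fold change of -0.13 (SE 0.057, edgeR adjusted p = 0.080). *Cct2* was at 801.7, 793.9 and 745.5 CPM against 760.4, 800.9 and 837.4 CPM. Its estimate was close to 0 (0.0002 on the log2 scale, SE 0.057, edgeR adjusted p = 0.998). As a share of the reads of the 8 genes, *Tcp1* went from 14.6% ± 0.064 (SD, n = 3) in controls to 11.5% ± 0.18 in *Rnmt* cKO libraries, and *Cct7* from 8.90% ± 0.15 to 11.2% ± 0.22.

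**Figure D1:**
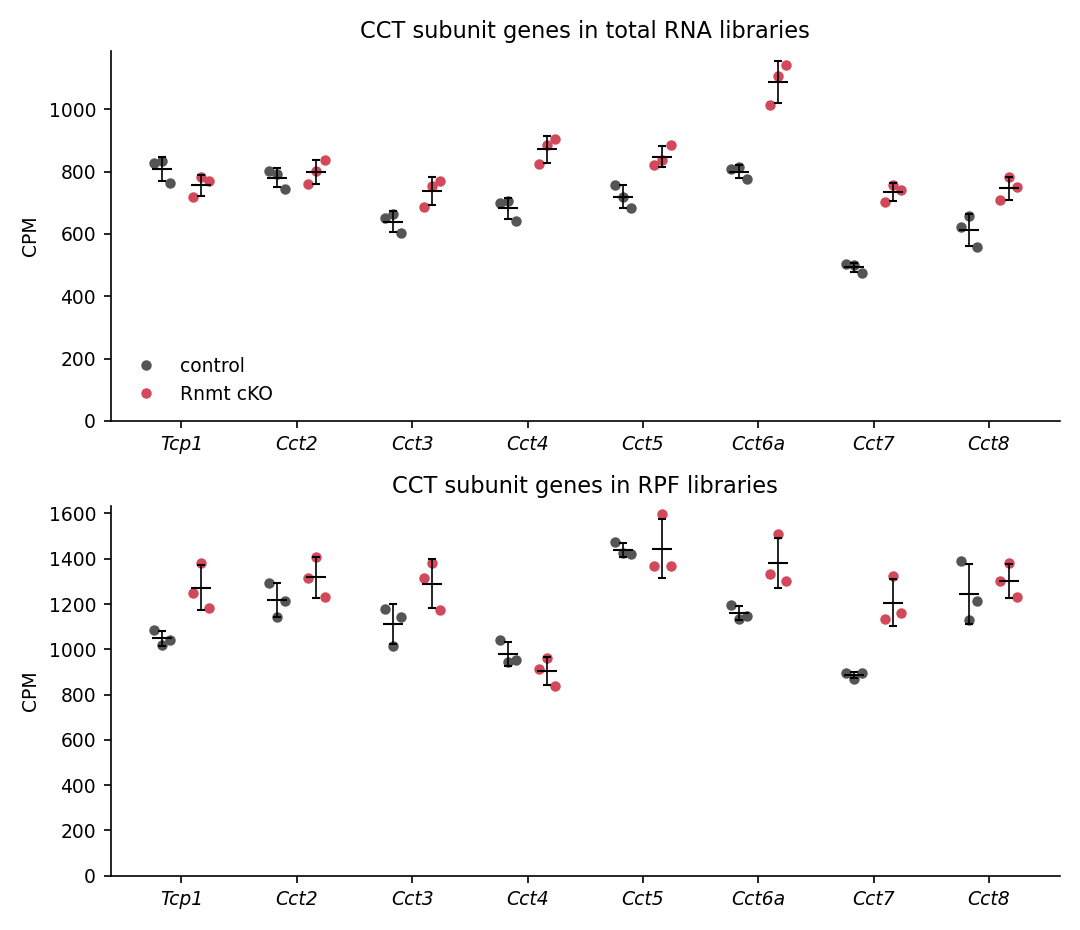
Level of each CCT gene (CPM, vertical axis) in the 3 control and 3 *Rnmt* cKO libraries of total RNA (upper panel) and RPF (lower panel). Points are libraries, and bars give the mean ± SD. In total RNA the *Rnmt* cKO points lie above all control points for 6 of 8 genes, and in RPF for 3 of 8.

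In RPF, 3 CCT genes rose in *Rnmt* cKO cells, *Cct7*, *Tcp1* and *Cct6a*, and 0 fell, nor was any lower at an unadjusted p under 0.05 or by DESeq2. *Cct3* was called higher in addition by DESeq2 (adjusted p = 0.040), and of these 3 genes *Cct7* alone passed the edgeR exact test. These are calls of single genes, and no count over the 8 is read from them. The other 5 did not pass the edgeR quasi-likelihood test. Over the 11428 genes tested, 14.1% were higher and 15.7% lower by the same edgeR test, and the median log2 fold change was 0.14 over the 8 genes and 0.008 over all. For these 3 genes the *Rnmt* cKO values all exceeded the control values, which was so for 23.6% of all genes tested.

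*Cct7* was at 895.6, 870.9 and 893.7 CPM in control RPF libraries and at 1134, 1325 and 1159 CPM in *Rnmt* cKO replicates 1 to 3. Its log2 fold change was 0.42 (SE 0.076, edgeR adjusted p = 0.0048), and it was called in all 6 fits that left out 1 library. *Tcp1* was at 1084, 1017 and 1042 CPM in controls against 1249, 1381 and 1184.5 CPM (log2 fold change 0.26, SE 0.072, edgeR adjusted p = 0.029). *Cct6a* was at 1195, 1135 and 1148 CPM against 1334, 1509 and 1301 CPM (0.23, SE 0.074, edgeR adjusted p = 0.047). Both missed the threshold in 5 of 6 fits without 1 library, all but that without *Rnmt* cKO replicate 3, with adjusted p up to 0.095 for *Tcp1* and 0.14 for *Cct6a*, while the estimates were 0.20 to 0.30 and 0.17 to 0.27. Over all 14 alternatives *Cct7* was called in 14, *Tcp1* in 6 and *Cct6a* in 4.

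*Cct4*, which rose in total RNA, was at 1039, 942.4 and 954.5 CPM in control RPF libraries and at 913.2, 962.9 and 836.7 CPM in those of *Rnmt* cKO. These ranges overlapped and the log2 fold change was -0.14 (SE 0.071, edgeR adjusted p = 0.18). The remaining estimates were 0.19 for *Cct3* (edgeR adjusted p = 0.11), 0.09 for *Cct2* (0.37), 0.04 for *Cct8* (0.72) and -0.02 for *Cct5* (0.88). The standard errors of these 5 estimates lay between 0.071 and 0.085.

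Translational efficiency (TE), the change in RPF relative to the change in total RNA, moved in opposite directions for 2 CCT genes. It rose for *Tcp1* and fell for *Cct4*, and the other 6 genes did not pass the test. The test was that of the interaction between genotype and kind of library, and of 10668 genes 3.24% were higher and 6.57% lower. The median log2 change was -0.15 over the 8 genes and 0.035 over all genes tested.

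In each culture, log2 of RPF CPM over total RNA CPM gives a relative measure of footprints per transcript. Mitochondrial ribosomal RNA held 18.7% to 23.6% of total RNA reads and 2.30% to 4.51% of RPF reads. The ratio is therefore read only against other genes or between genotypes. For *Tcp1* the ratio was 0.39, 0.28 and 0.45 in control cultures 1 to 3 and 0.80, 0.82 and 0.62 in *Rnmt* cKO cultures. The 2 groups did not overlap, with *Rnmt* cKO above, as for 13.9% of all genes tested. The interaction was 0.39 on the log2 scale (SE 0.091, edgeR adjusted p = 0.017), a fold of 1.31. The call was lost in 4 of 6 fits that left out 1 culture, those without replicate 1 or 2 of either genotype, where the adjusted p reached 0.093, while the estimate stayed between 0.33 and 0.42. Over all 13 alternatives it was called in 7, and missed the threshold also without a filter (0.40, adjusted p = 0.054).

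For *Cct4* the same ratio was 0.57, 0.42 and 0.57 in control cultures and 0.15, 0.12 and -0.11 in those of *Rnmt* cKO. The *Rnmt* cKO cultures were all below the controls, as for 15.4% of all genes tested and also for *Cct5* and *Cct6a*, whose interactions did not pass the test. The interaction for *Cct4* was -0.46 (SE 0.092, edgeR adjusted p = 0.0069), a fold of 0.729, and it was called in all 13 alternatives (highest adjusted p = 0.046). Among all genes tested, the mean ratio of *Cct4* stood at the 64.5th percentile in controls and the 44.3rd in *Rnmt* cKO cells, and that of *Tcp1* at the 58.3rd and the 73.7th.

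**Figure D2:**
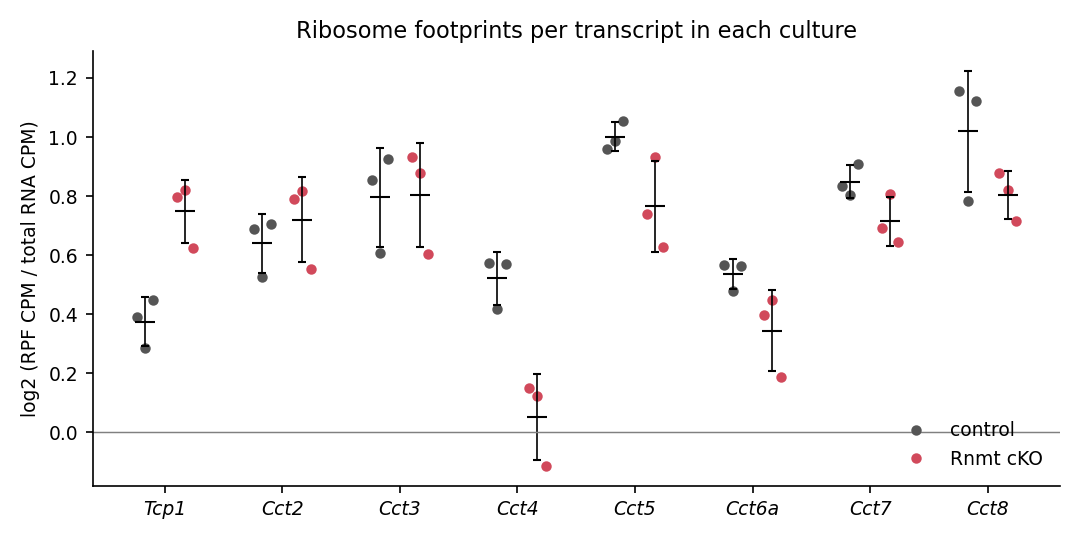
Log2 ratio of RPF CPM to total RNA CPM (vertical axis) for each CCT gene in each of 3 control and 3 *Rnmt* cKO cultures. Points are cultures, and bars give the mean ± SD. *Tcp1* is higher, and *Cct4*, *Cct5* and *Cct6a* are lower, in every *Rnmt* cKO culture than in any control.

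The other 6 genes had interaction estimates of -0.22 (*Cct5*, edgeR adjusted p = 0.20), -0.20 (*Cct8*, 0.28), -0.18 (*Cct6a*, 0.26), -0.12 (*Cct7*, 0.48), 0.09 (*Cct2*, 0.58) and 0.02 (*Cct3*, 0.93). In controls the ratio was highest for *Cct8* (1.02 ± 0.21, SD, n = 3) and *Cct5* (1.00 ± 0.049) and lowest for *Tcp1* (0.37 ± 0.083). The median of all genes was 0.18, so that all 8 lay above it in controls. In *Rnmt* cKO cells *Cct3* (0.80 ± 0.18) and *Cct8* (0.80 ± 0.083) were highest, and *Cct4* was the only member below the median of all genes (0.05 ± 0.14 against 0.19).

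**Figure D3:**
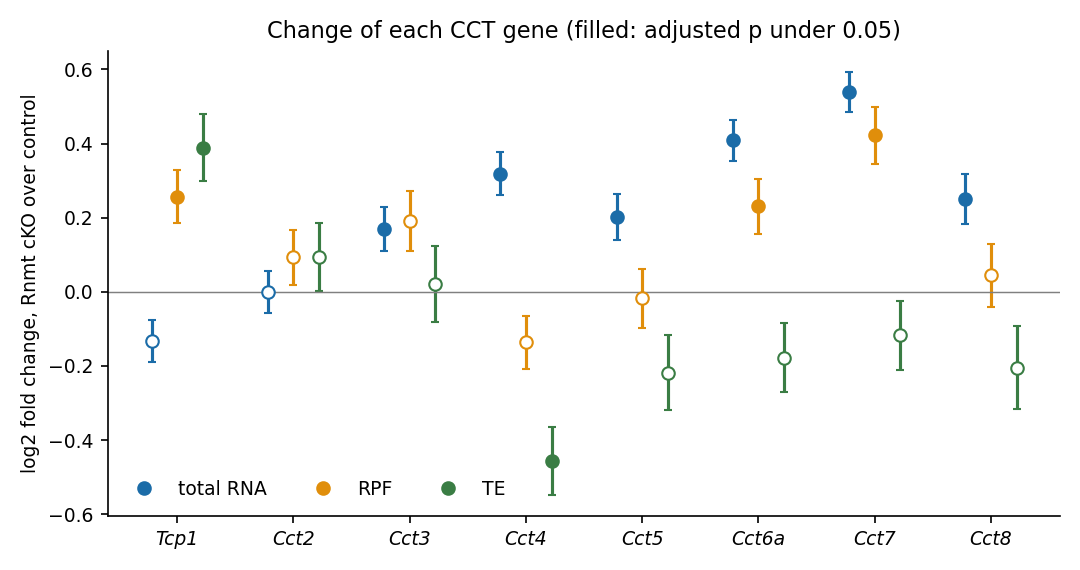
Log2 fold change of *Rnmt* cKO over control (vertical axis, ± SE) for each CCT gene in total RNA, RPF and TE. Filled points have an adjusted p under 0.05. *Tcp1* and *Cct4* move apart, with TE estimates of 0.39 and -0.46.

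Taken as a sum, the 8 genes held 5672, 5689 and 5246 CPM in control total RNA and 6233, 6704 and 6800 CPM in that of *Rnmt* cKO. Every *Rnmt* cKO library lay above the controls, with means of 5536 ± 251 and 6579 ± 303 (SD, n = 3), 18.8% higher. The two-sided exact permutation test gave p = 0.1, the smallest that 3 against 3 allows. In RPF the sum was 9551, 8678 and 9030.4 CPM in controls and 9929.7, 10948 and 9481 CPM in *Rnmt* cKO libraries, 11.4% higher in the mean (exact permutation p = 0.2), with overlapping ranges. Without *Rnmt* cKO replicate 2 the RPF difference was 6.81%, and with TMM effective library sizes it was 9.65% with no overlap (exact permutation p = 0.1).

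Since each subunit has its own place in the ring, the level per length was compared between the genes. RPF CPM per kb of coding sequence could be given for 7 genes, since *Cct6a* has no coding sequence in the GENCODE vM21 annotation used here. In controls *Cct5* was highest, at 887 ± 18.9 CPM per kb (SD, n = 3), and its range was apart from that of the next gene, *Cct8* (755 ± 79.9). *Cct8*, *Cct2* (695 ± 43.0), *Cct3* (647 ± 50.9), *Tcp1* (617 ± 20.0) and *Cct4* (587 ± 31.6) followed, each overlapping its neighbour, and *Cct7* was lowest (543 ± 8.41) and apart. The highest gene was 1.63-fold above the lowest.

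In *Rnmt* cKO cells *Cct5* was still highest (890.5 ± 80.9 CPM per kb). *Cct7* came to 739 ± 63.4, overlapping the range of *Tcp1* (749 ± 58.9), and *Cct4* was lowest (542 ± 38.1) with a range apart from all others. The share of *Cct4* in the summed RPF density of the 7 genes was 12.4% ± 0.21 in controls and 10.4% ± 0.24 in *Rnmt* cKO libraries, and that of *Cct7* 11.5% ± 0.44 and 14.2% ± 0.53. The order rested in part on the lengths used. With the coding sequence of the longest transcript, *Cct2* came before *Cct8* in RPF, and in *Rnmt* cKO the range of *Cct5* overlapped that of *Cct2*, the next gene, while *Cct7* stayed lowest in controls and *Cct4* in *Rnmt* cKO. In total RNA, per kb of all annotated exons, *Cct2* was 4.20-fold above *Cct7* in controls, and per kb of the longest coding transcript 1.97-fold.

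**Figure D4:**
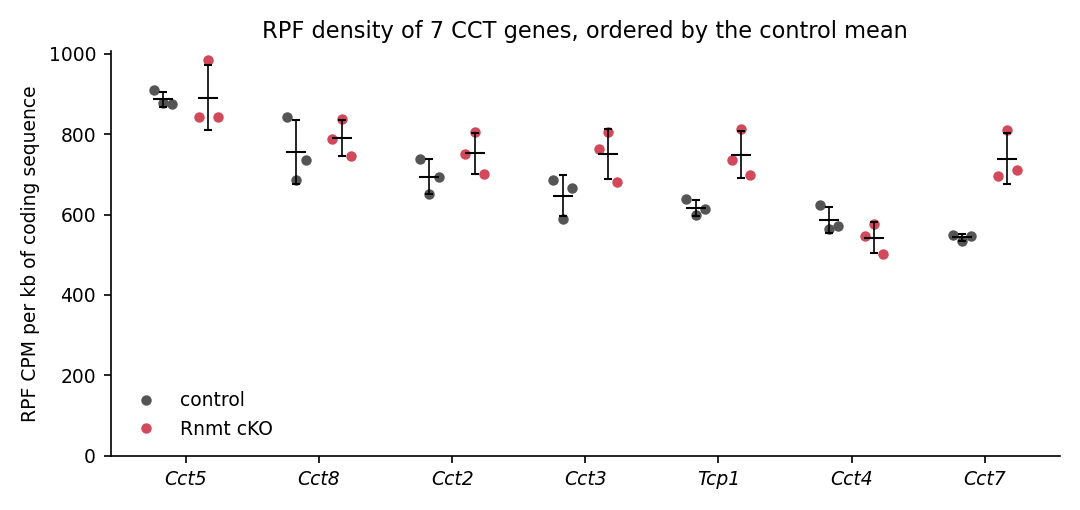
RPF CPM per kb of coding sequence (vertical axis) for 7 CCT genes, ordered by their control mean, in 3 control and 3 *Rnmt* cKO libraries. Points are libraries, and bars give the mean ± SD. *Cct5* is highest in both genotypes, and the lowest gene is *Cct7* in controls and *Cct4* in *Rnmt* cKO.

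Genes whose products work with CCT were counted in the same fits, where 26.3% of all genes were higher and 28% lower in total RNA, 14.1% and 15.7% in RPF and 3.24% and 6.57% in TE. With 3 to 12 genes tested in a list, the counts are a description and nothing particular to a list is read from them. Of the 6 prefoldin genes, whose products carry unfolded actin and tubulin to CCT, 2 were higher and 3 lower in total RNA and 2 higher and 1 lower in RPF. *Pfdn2* was at 10.1, 9.99 and 17.8 CPM in control total RNA and at 32.9, 30.6 and 17.0 CPM in *Rnmt* cKO replicates 1 to 3, so the groups overlapped, and replicates 1 and 2, the libraries with the most B cell marker reads, were the high ones (log2 fold change 1.04, edgeR adjusted p = 0.022). The part of B cells in this was not tested. In RPF it rose with no overlap (0.59, edgeR adjusted p = 0.0051). Among the called genes *Pfdn5* was lowest in total RNA (-0.40, edgeR adjusted p = 0.0013) and *Pfdn1* in RPF (-0.30, 0.026). *Vbp1*, which had the highest mean CPM over both kinds of library though not in each of them, did not pass the test in any comparison. In TE 0 of the 6 passed, and 2 were higher at an unadjusted p under 0.05 by edgeR.

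Of 4 phosducin-like and thioredoxin-like genes, whose products bind CCT and modulate its folding, 3 passed the filter and *Pdcl2* did not. *Pdcl* fell in total RNA with overlapping groups (-0.25, edgeR adjusted p = 0.020), and in RPF *Pdcl3* fell (-0.33, 0.012) and *Txndc9* rose (0.30, 0.029). Among other chaperonin genes *Cct6b*, a close relative of *Cct6a*, was at 1.61 CPM in control total RNA, against 799.4 for *Cct6a*, and *Cct8l1* did not pass the filter. *Cct6b* rose to 2.68 CPM in *Rnmt* cKO total RNA (log2 fold change 0.70, edgeR adjusted p = 0.020). *Hspd1*, the mitochondrial chaperonin, did not pass the test, and *Hspe1*, its co-chaperonin, fell in total RNA (-0.44, edgeR adjusted p = 0.0014).

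Tubulin cofactors assemble the tubulin dimer once CCT has folded its subunits. Of 6, 1 was higher and 4 lower in total RNA, 1 higher and 3 lower in RPF and 1 each in TE, against the shares over all genes given above. *Tbcc* rose in total RNA (0.52, edgeR adjusted p = 0.0058) and fell in RPF (-0.38, 0.020) and TE (-0.90, 0.0021). *Tbcd*, which had the highest CPM of the list, fell in total RNA with overlapping groups (-0.20, 0.041) and rose in RPF (0.23, 0.023) and TE (0.43, 0.011). *Arl2*, a GTPase that works with these cofactors, had the lowest value in total RNA (-0.56, 0.0017).

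Of 12 actin and tubulin genes, 3 were higher and 3 lower in total RNA, 1 higher and 3 lower in RPF and 1 higher and 2 lower in TE. In total RNA this is close to the shares over all genes (26.3% higher and 28% lower). *Actb*, the beta-actin gene and the most abundant client, was at 6687 CPM in control and 6839 CPM in *Rnmt* cKO total RNA, and at 16878 and 12632 CPM in RPF. It fell in RPF (log2 fold change -0.44, edgeR adjusted p = 0.0070) and in TE (-0.44, 0.015). *Tubb5* fell in total RNA (-0.55, 2.8e-04) and RPF (-0.36, 0.0086). *Tubb6* rose in both (2.56 and 1.68), from 1.26 CPM in control total RNA. Among the called genes *Tuba1a* was lowest in RPF (-0.67, 0.0032), *Tubg1* in TE (-0.68, 0.0047), and *Tubb2a* highest in TE (0.71, 0.020). *Actg1*, gamma-actin, was at 2.68 CPM in control total RNA; reads it shares with near-identical copies were not counted, so its values are uncertain, as are those of the closely related tubulin genes.

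Of 10 other reported clients, 3 were higher and 1 lower in total RNA, 0 were called in RPF, also at an unadjusted p under 0.05 (all genes 14.1% higher and 15.7% lower), and 1 was lower in TE. *Vhl*, a tumour suppressor whose product is folded by CCT, had the highest rise in total RNA (0.90, edgeR adjusted p = 4.3e-04) and fell in TE (-0.85, 0.0037). *Tert*, the telomerase catalytic subunit, was the lowest of the called genes in total RNA (-0.42, 0.020), and *Stat3* did not pass in any comparison.

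**Figure D5:**
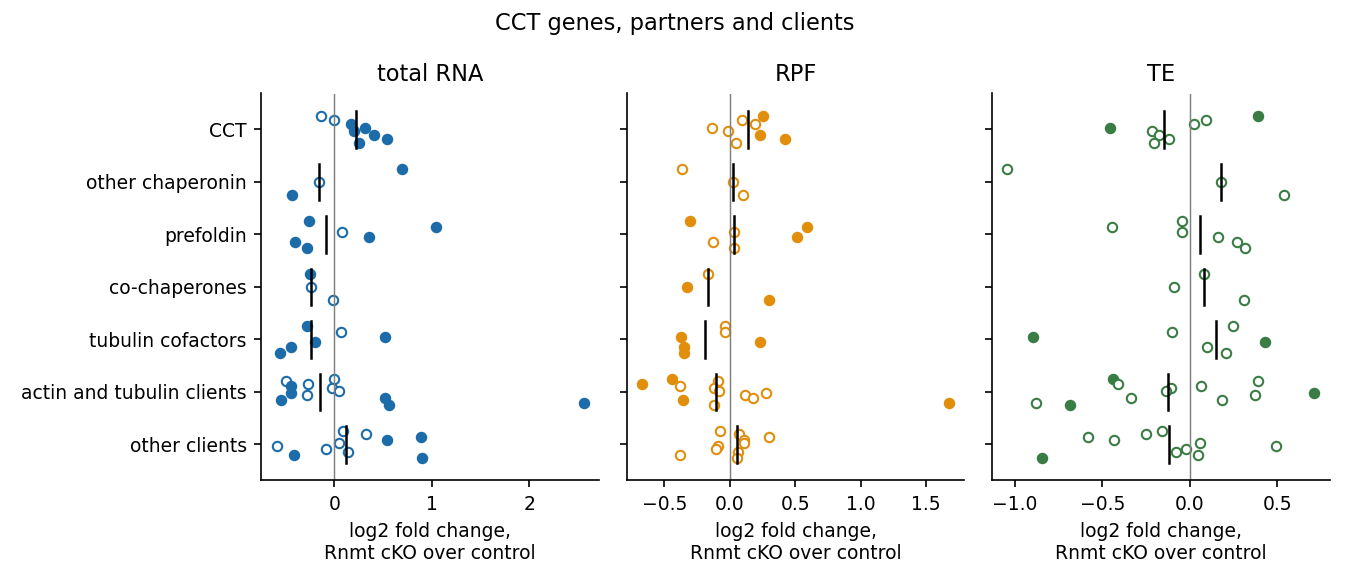
Log2 fold change of *Rnmt* cKO over control (horizontal axis) in total RNA, RPF and TE for the CCT genes and the lists of related genes (vertical axis). Each point is a gene, filled where the adjusted p was under 0.05, and black lines are medians. In total RNA 6 of 8 CCT genes are filled and above 0, and the prefoldin, tubulin cofactor and client lists have filled points on both sides of 0.

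Genes that share a locus with a CCT gene were followed separately. Of 5 protein-coding genes that start within 1000 bases of a CCT gene on the opposite strand (*Mrpl18* beside *Tcp1*, *Tsacc* beside *Cct3*, *Fam173b* beside *Cct5*, *Psph* beside *Cct6a* and *Pradc1* beside *Cct7*), 0 rose in total RNA or RPF, also at an unadjusted p under 0.05, where 26.3% and 14.1% of all genes did. With 5 genes nothing is read from this count. *Psph*, an enzyme of serine synthesis, fell in total RNA (-0.41, edgeR adjusted p = 0.0054) and RPF (-0.38, 0.0037), while *Cct6a*, whose start lies 451 bases away, rose in both. *Tcp1* and *Cct6a* each host 2 small nucleolar RNA genes. *Snora20*, in *Tcp1*, was at 66.1, 98.0 and 118.2 CPM in control RPF libraries and at 125.9, 142.3 and 327.4 CPM in those of *Rnmt* cKO, with no overlap, but did not pass the test (log2 fold change 1.05, edgeR adjusted p = 0.065). In total RNA it was at 12.02, 11.95 and 11.93 CPM in controls and 10.9, 8.72 and 10.5 CPM in *Rnmt* cKO libraries, again with no overlap but in the other direction, and did not pass the test (-0.29, edgeR adjusted p = 0.074). A snoRNA is not translated, and its reads in RPF libraries are not footprints.

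Over the 12 libraries, with log2 CPM (pseudocount 1) centred within each kind of library, the mean profile of the 8 genes was most like those of *Ttc4* (Pearson r = 0.97), *Ciapin1* (0.97), *Ccdc127* (0.97), *Hccs* (0.96) and *Exosc4* (0.95) among 6716 ranked genes. These correlations share the genotype difference and the depth of the same libraries. The 5 genes were chosen by this likeness, so their log2 fold changes in total RNA, from 0.19 to 0.61, are a description with no test. Each member is part of the mean profile, which raises its r with it. This r was 0.97 for *Cct6a*, 0.95 for *Cct3*, 0.93 for *Cct7*, 0.91 for *Cct8* and 0.85 for *Cct5*. It was 0.77 for *Cct2*, 0.72 for *Cct4* and 0.42 for *Tcp1*.

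Reads that match several genes could blur single members. Of all 28-base windows of a member's annotated transcripts, 0% of *Cct5* and *Cct8* and 0.302% of *Cct2* also occurred in a transcript of a gene elsewhere in GENCODE vM21. The share was 2.53% for *Cct4*, 3.71% for *Cct7*, 4.27% for *Cct6a*, 6.99% for *Cct3* and 11.5% for *Tcp1*. The gene that shared most with *Tcp1* was *Acat2*, and that with *Cct3* the pseudogene *Cct3-ps1*.

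Markers of other cells and of activation were read beside these results. The 4 B cell markers were detected in every library. Summed, they were at 7.61, 5.23 and 26.1 CPM in control total RNA and 67.4, 81.1 and 16.9 CPM in *Rnmt* cKO replicates 1 to 3, and at 10.4, 7.52 and 36.2 CPM against 120.1, 128.9 and 19.2 CPM in RPF. *Ms4a1* had the highest mean of them in total RNA in both genotypes. Without *Rnmt* cKO replicates 1 and 2, the lone library is assumed to vary like the controls, so only estimates of that fit are given. The tallies over all alternatives include it. The estimate for *Cct4* in TE was then -0.60. Those for *Cct8* in total RNA (0.27), *Tcp1* (0.18) and *Cct6a* (0.17) in RPF and *Tcp1* in TE (0.29) were obtained in the same way. Each of these had an estimate above 0 and a larger standard error. CD8 markers summed to 21.2, 21.4 and 40.5 CPM in control total RNA and 25.8, 22.0 and 10.1 CPM in that of *Rnmt* cKO. NK markers were low but higher in every *Rnmt* cKO library than in any control, summing to 0.682 to 1.85 CPM in control and 2.92 to 3.45 CPM in *Rnmt* cKO total RNA, and to 0.147 to 1.70 and 2.43 to 3.34 CPM in RPF. Myeloid markers summed to 0.105 to 0.264 CPM in control and 0.354 to 0.862 CPM in *Rnmt* cKO total RNA. In RPF they summed to 0.0938 to 0.365 and 1.46 to 3.15 CPM. There *Fcer1g* (0.0804 against 1.66 CPM) had 1, 1 and 0 reads in controls and 11, 25 and 5 in *Rnmt* cKO replicates 1 to 3. It passed the filter through the *Rnmt* cKO libraries alone, so no call is read from it. Of the 2 regulatory T cell markers *Ikzf2* rose in total RNA from 9.92 to 22.1 CPM (edgeR adjusted p = 1.3e-04). It rose in RPF from 2.55 to 6.57 CPM (edgeR adjusted p = 0.0499). *Foxp3* was at 0.788 and 0.544 CPM in total RNA, under the filter, and at 5.95 and 5.33 CPM in RPF (edgeR adjusted p = 0.56). The part of these cells in the CCT results was not tested.

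The 3 activation markers rose with the CCT genes. Summed, they were at 357, 354 and 408 CPM in control total RNA and at 638, 762 and 665 CPM in that of *Rnmt* cKO. *Il2ra*, a receptor chain for the cytokine encoded by *Il2*, had a log2 fold change of 0.81 in total RNA (edgeR adjusted p = 7.2e-04), *Cd69* of 0.85 (3.2e-04) and *Il2* of 1.48 (4.1e-04). Their part in the CCT results was not tested. Mapping also differed in total RNA. Reads matching several places were 30.1%, 29.3% and 28.7% in controls and 25.1%, 24.3% and 27.3% in *Rnmt* cKO replicates 1 to 3. Reads on no gene or not assigned to a single gene were 6.61%, 6.92% and 7.32% against 9.47%, 9.35% and 8.41%. In RPF libraries both ranges overlapped. The part of these differences in the CCT results was not tested.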

How the data were processed

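Total RNA and RPF libraries were made with the TruSeq Ribo Profile kit. The authors removed adapters with Cutadapt and ribosomal RNA and tRNA reads with Bowtie, aligned to mm10 with STAR 2.5.2b and the GENCODE vM12 basic annotation, and deposited raw gene counts from unique alignments, 1 file for each of 12 libraries. A table of 10126 genes deposited by the authors holds a normalised signal per library, which equals the reverse strand counts divided by 1 factor per library, and the authors' own log2 fold changes and p-values, which were not used. The reverse strand counts were used here. CPM were taken over all reads on genes, of which mitochondrial ribosomal RNA held 18.7% to 23.6% in total RNA and 2.30% to 4.51% in RPF libraries.

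Counts were fitted with edgeR 4.0.16 (quasi-likelihood test, TMM, R 4.3.3) on genes with CPM above 1 in at least 3 of 6 libraries, total RNA and RPF separately. TE was tested as the genotype by assay interaction in all 12 libraries, and TMM factors were set for total RNA and RPF apart. Adjustment of p-values was by Benjamini-Hochberg over all genes tested, with a threshold of 0.05. The fits were tested on simulated counts, where the TE fit recovered fewer of the changed genes than the total RNA fit, so a gene that did not pass in TE may still have changed. The recovery required of the fits was lowered after that of TE was seen. Total RNA and RPF libraries of the same number deviated together (correlations 0.157, 0.198 and 0.375 in controls, 0.112, 0.359 and 0.285 in *Rnmt* cKO). They were taken to come from the same culture. Libraries of different numbers were not compared, so this pairing is assumed. A fit with culture as a block left the TE calls of *Tcp1* and *Cct4* as they were. Positions, lengths and transcripts were those of GENCODE vM21, which held 49326 of the 49585 genes, and promoters those of RefSeq. The alternatives tried were DESeq2 1.42.0, no TMM factors, the edgeR exact test (total RNA and RPF), other filters, counts of both strands, a replicate block, each replicate left out, and, chosen after seeing the data, *Rnmt* cKO replicates 1 and 2 left out together.

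The members, gene lists and tests were chosen with earlier results of these data known. Of each list the lowest and highest called genes and the most abundant gene are named.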

Additional observations from a re-analysis of the deposited data

Results flagged for a closer look

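The response of footprints differed from that of the transcript for 2 CCT genes, by edgeR's test of the interaction itself. For *Tcp1* the genotype difference in RPF exceeded that in total RNA by 0.389 on the log2 scale (adjusted p = 0.017). For *Cct4* the difference was -0.455 (adjusted p = 0.0069). *Tcp1* was called in 7 of 13 alternatives (edgeR adjusted p up to 0.093 with 1 culture left out) and *Cct4* in 13. 11.5% of the 28-base windows of *Tcp1* and 2.53% of those of *Cct4* occurred in transcripts of other genes, and their part in these results was not tested.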

How the results depend on the processing

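Of the fits of single CCT genes under the alternatives, 90 of 112 in total RNA, 88 of 112 in RPF and 93 of 104 in TE kept their direction and their side of the threshold. Signs turned only for estimates near 0 that were not called. *Cct2* in total RNA was -0.0098 without a filter, -0.0026 with both strands and -0.024 to 0.031 with 1 replicate left out. *Cct5* in RPF was 0.0059 without TMM and -0.089 to 0.037 with 1 replicate left out, *Cct8* in RPF -0.017 to 0.11, and *Cct3* in TE -0.053 to 0.094. Without *Rnmt* cKO replicates 1 and 2, *Cct8* in RPF was -0.013, *Cct2* in TE -0.049 and *Cct3* in TE -0.16, RPF calls over all genes were 477 higher and 520 lower, TE calls 81 higher and 294 lower, and CCT genes called higher were 1 in RPF and 0 in TE. In RPF, *Cct7* was called in all 14 alternatives, and *Cct3* by DESeq2 alone. *Tcp1* and *Cct6a* missed the threshold there by the edgeR exact test and without a filter. With 1 replicate left out they passed only without *Rnmt* cKO replicate 3. In TE, 214 genes and 0 CCT genes were higher without a filter, and leaving out 1 replicate gave 122 to 367 higher, 415 to 812 lower and 0 to 1 CCT genes higher. The causes were not tested. The highest level per kb of total RNA over the lowest was 1.97 in controls and 1.52 in *Rnmt* cKO with the longest coding transcript, against 4.20 and 2.89 with all exons.

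Control and *Rnmt* cKO samples shared only a number (correlations -0.286, -0.221 and -0.523 in total RNA, 0.141, -0.053 and -0.069 in RPF). With a replicate block, 2455 genes were higher and 2751 lower in total RNA, with 4 CCT genes higher (*Cct3* and *Cct5* missed the threshold), and 1596 higher and 1636 lower in RPF, with 2 CCT genes higher (*Cct6a* missed it). The culture block in TE gave 426 higher and 777 lower.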
